A study of Mus musculus with 7 samples.

Results

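The 10 genes described here encode the enzymes that make and break down polyamines in mouse cells, together with the proteins that control the first enzyme. They were taken by symbol, as a list of the pathway and not by their values, and the 10 stand among 16019 genes measured in each library. Odc1, Amd1, Srm and Sms belong to synthesis, Azin1, Oaz1 and Oaz2 to the control of ornithine decarboxylase, and Sat1, Smox and Paox to acetylation and oxidation. Prostate RNA was sequenced in 7 libraries from mice with EAP (experimental autoimmune prostatitis, in which an immune response inflames the gland). In 4 of them, replicates 1 to 4, the mice had received LIT927, a compound that binds the chemokine CXCL12, at 25 mg/kg per day into the peritoneum for 14 days. In the other 3, replicates 1, 3 and 4, they had received its solvent methyl-β-cyclodextrin for the same time, called vehicle here. Every mouse carried the EAP model, so levels in a gland without it were not analysed here. The sources used here give neither strain nor age, and do not state that libraries are from separate animals. The p-values therefore reflect the spread among these 7 libraries, part of which may be technical.

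Polyamines are small positively charged molecules that bind nucleic acids and are needed for growth and translation. Ornithine decarboxylase (Odc1) makes putrescine, and the enzyme encoded by Amd1 decarboxylates S-adenosylmethionine to give the aminopropyl donor with which spermidine synthase (Srm) and spermine synthase (Sms) extend the chain. Antizymes (Oaz1, Oaz2) bind ornithine decarboxylase, send it to the proteasome and restrain polyamine uptake, while the antizyme inhibitor (Azin1) binds antizyme and frees the enzyme. Spermidine/spermine acetyltransferase (Sat1) marks polyamines for export or for oxidation by Paox, and Smox oxidises spermine directly. The prostate is among the tissues richest in polyamines, and Odc1 is a classical androgen-responsive gene of the rodent gland.

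Several of these genes are controlled after transcription by short stretches of their own mRNA, which bears on how far transcript levels describe the pathway. Antizyme is made in full only when ribosomes shift frame at a stop codon, and polyamines favour the shift. The frameshift sites below, read from the mm10 genome, are shown because they are the switch that Oaz1 and Oaz2 share. Capitals mark the last codon before the shift and the stop codon of the first frame. The Oaz1 site is at chr10:80828280-80828309 on the plus strand and the Oaz2 site at chr9:65686257-65686286 on the plus strand, each inside 1 exon.
Oaz1: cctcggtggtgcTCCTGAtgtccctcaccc
Oaz2: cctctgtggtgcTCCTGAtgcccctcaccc
The pair were identical at 28 of 30 bases. Translation of Amd1 is held back, when polyamines are plentiful, by a short upstream open reading frame in its leader. This frame was found in the annotated Amd1 transcript at positions 12 to 32, ahead of the main start codon at position 329, and its genome position is chr10:40302155-40302175 on the minus strand. Capitals mark its start and stop codons, which enclose a frame of 6 codons before the stop.
Amd1: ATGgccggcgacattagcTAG

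The deposited values were FPKM (fragments per kilobase of gene length per 1000000 fragments), so levels of different genes can be set beside each other. Recovered as whole fragments, they amounted to between 32043840 and 34804730 in LIT927 libraries and between 33617611 and 35258091 in vehicle libraries. A member rested on 164 fragments at the least (Paox) and 15638 at the most (Amd1), and 9 of 10 members reached 1 FPKM. The 10 most abundant genes took 22.2% to 72.3% of a library's FPKM, and median-of-ratios factors ran from 0.813 to 1.16 in LIT927 libraries and from 0.665 to 1.31 in vehicle libraries. Vehicle replicate 4, with the lowest factor, therefore reads low for most genes on the FPKM scale. The libraries also differed in which organs' transcripts they held. Of the marker lists used, seminal vesicle secretion (7 genes) had the highest sum in every library. Its lowest sum, 44418 FPKM, belonged to vehicle replicate 1 and its highest, 540542 FPKM, to vehicle replicate 4. All genes together made 445417 and 816215 FPKM there. LIT927 libraries held 125620 to 286272 FPKM of these markers. Svs5, 1 of the 7, spanned 15125 to 159484 FPKM between the same vehicle libraries. Replicate 3 of each group had high transcripts of the urothelial gene Upk1a, at 253 FPKM in LIT927 replicate 3 and 172 FPKM in vehicle replicate 3, against 2.64 to 10.1 FPKM in the other 5 libraries. The vas deferens gene Akr1b7 was at 15.9 FPKM in LIT927 replicate 3 and 84.5 FPKM in vehicle replicate 3, against at least 1597 FPKM elsewhere. Prostate secretory genes did not share 1 order of libraries. Sbp, which encodes spermine-binding protein, was at 114916 FPKM in LIT927 replicate 3 and 53139 FPKM in vehicle replicate 3, against 7.998 to 5316 FPKM elsewhere, and the 7 prostate secretory markers summed highest there too, at 166827 FPKM in LIT927 replicate 3 and 75982 FPKM in vehicle replicate 3, against 5977 to 20501 FPKM elsewhere. Pbsn, another of them, was present throughout, at 129 to 8963 FPKM in LIT927 libraries and 1283 to 11311 FPKM in vehicle libraries. These values stand beside several results below, and their part in those results was not tested.

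No member differed between LIT927 and vehicle after adjustment. A gene was called at an adjusted p under 0.05 (limma on log2(FPKM + 1), Benjamini-Hochberg over 16019 genes), and 0 of 10 members passed, beside 0% of all genes. Without adjustment 0 of 10 members and 3.68% of all genes had a p under 0.05. Neither did the 4 LIT927 libraries separate from the 3 vehicle libraries for any member, while 3.2% of all genes had groups that did not overlap, 1.08% with LIT927 above and 2.12% with it below. After median-of-ratios scaling the counts were 0 of 10 members and 9.03% of all genes. A higher mean of log2(FPKM + 1) with LIT927, the scale of every such count here, was found for 4 members, beside 55.5% of all genes, and a lower one for 6, with a median difference of -0.01 (log2, LIT927 minus vehicle) against 0.02 over all genes. The adjusted p was 0.998 for each of the 10, so it is not repeated below. Exact permutation p-values are two-sided over 35 divisions of the 7 libraries, the smallest possible being 0.0286. In bulk tissue, fewer cells of a type and less RNA per cell cannot be told apart.

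**Figure D1:**
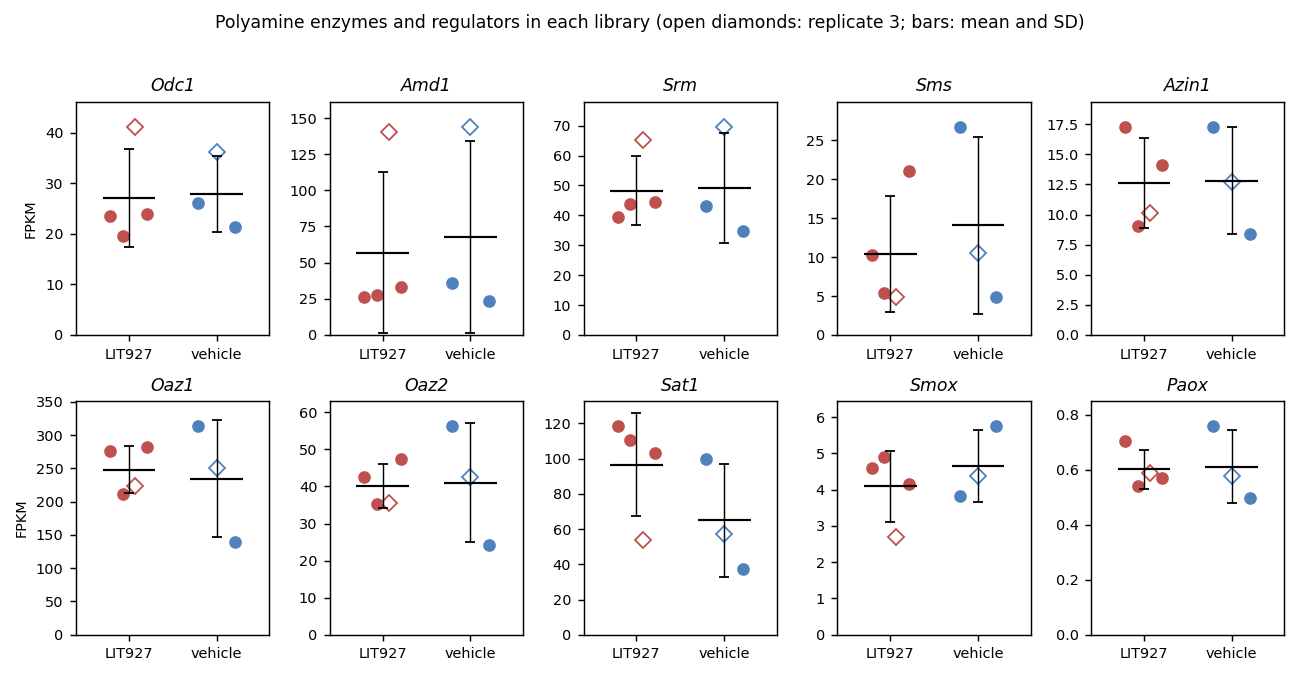
FPKM of the 10 members in each library, LIT927 in red on the left of each panel and vehicle in blue on the right, with the mean and SD of each group (n = 4 and n = 3) as bars. Open diamonds are replicate 3 of each group, which hold the highest values of Odc1, Amd1 and Srm; the groups overlap in every panel.

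Ornithine decarboxylase transcripts were at nearly the same mean level in both groups. Odc1 (chr12:17544794-17551505, plus strand) had 23.5, 19.5, 41.3 and 24.0 FPKM in LIT927 replicates 1 to 4, against 26.1, 36.2 and 21.4 FPKM in vehicle replicates 1, 3 and 4. On the FPKM scale the highest library of each group was its replicate 3. The other 5 lay close together, with vehicle replicate 1 above and LIT927 replicate 2 below the rest. After median-of-ratios scaling, vehicle replicate 4, at 32.2, lay just below vehicle replicate 3, at 33.6. LIT927 replicate 3 was then at 50.7, and LIT927 replicates 1, 2 and 4 and vehicle replicate 1 at 19.2 to 20.8. Means were 27.1 ± 9.67 FPKM with LIT927 (SD, n = 4) and 27.9 ± 7.57 FPKM with vehicle (SD, n = 3). The difference was -0.07 on the log2(FPKM + 1) scale (SE 0.30, 95% interval -0.76 to 0.63, exact permutation p = 0.8286). The interval leaves room for a change in either direction.

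Amd1, which supplies the aminopropyl donor, varied more than any other member. It had 26.5, 27.3, 140.3 and 33.5 FPKM in LIT927 replicates 1 to 4, against 36.0, 144 and 23.7 FPKM in vehicle replicates 1, 3 and 4 (chr10:40287458-40302186, minus strand). Replicate 3 of each group thus stood far above the other 5 libraries, which ran from 23.7 to 36.0 FPKM, and the highest value was 6.09 times the lowest. Among 4302 genes with a mean of at least 10 FPKM, the median of that ratio was 2.18. Group means were 56.9 ± 55.7 FPKM with LIT927 (SD, n = 4) and 67.9 ± 66.2 FPKM with vehicle (SD, n = 3), and their difference was -0.21 (SE 0.77, 95% interval -1.99 to 1.57, exact permutation p = 0.743). After median-of-ratios scaling the pair stood out still more, at 173 in LIT927 replicate 3 and 134 in vehicle replicate 3, against 23.3 to 35.6 in the other libraries. The transcript of Amd2, a copy on the same chromosome, is 99.1% identical to that of Amd1 over 3218 aligned bases, so the division of fragments between them is uncertain. Amd2 was listed at 0.876 FPKM in LIT927 replicate 3 and 1.25 FPKM in vehicle replicate 3, and at 0.115 to 0.430 FPKM in the other libraries.

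Spermidine synthase was also highest in both replicates 3, at a smaller amplitude. Srm (chr4:148591503-148594993, plus strand) had 39.3, 43.9, 65.2 and 44.5 FPKM in LIT927 replicates 1 to 4, against 43.0, 69.7 and 34.6 FPKM in vehicle replicates 1, 3 and 4. Both replicates 3 were again above the other 5 libraries. Mean FPKM was slightly lower with LIT927, at 48.2 ± 11.5 (SD, n = 4) against 49.1 ± 18.3 with vehicle (SD, n = 3). The difference of mean log2(FPKM + 1) was 0.01, of the opposite sign (SE 0.29), with a 95% interval of -0.67 to 0.68 and an exact permutation p of 0.971. That difference turned negative under 3 other scalings, at -0.051 with median-of-ratios, -0.096 with upper-quartile and -0.036 with voom.

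Odc1, Amd1 and Srm were thus the 3 members, out of 10, for which both replicates 3 lay above the other 5 libraries, and for no member did both lie below. Over all genes, 8.58% were highest in both of these libraries and 5.98% lowest. After scaling, the 3 members were still highest there, beside 13.5% of all genes, and again no member was lowest, beside 12.9%. For Odc1 the margin was then small, with 33.6 in vehicle replicate 3 and 32.2 in vehicle replicate 4. The promoters of Amd1 and Odc1 are shown because these genes moved together; Srm has no entry in the table used. They are the 250 bases before the RefSeq start of Amd1 (GRCm38.p6, chr10:40302189-40302438, minus strand) and the 171 bases of the Odc1 window that lie before its first annotated exon (GRCm38.p6, chr12:17544623-17544793, plus strand). Motifs searched on both strands were the E-box bound by Myc and Max (CACGTG), the TATA element (TATAA) and the GC box (GGGCGG), and capitals mark their matches. In the Amd1 promoter the 2 TATA matches, 1 on each strand, overlap.
Amd1: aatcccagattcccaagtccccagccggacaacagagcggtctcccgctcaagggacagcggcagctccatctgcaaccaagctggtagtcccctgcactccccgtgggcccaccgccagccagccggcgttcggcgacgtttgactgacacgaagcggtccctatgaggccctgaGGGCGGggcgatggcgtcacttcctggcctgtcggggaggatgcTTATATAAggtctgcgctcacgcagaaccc
Odc1: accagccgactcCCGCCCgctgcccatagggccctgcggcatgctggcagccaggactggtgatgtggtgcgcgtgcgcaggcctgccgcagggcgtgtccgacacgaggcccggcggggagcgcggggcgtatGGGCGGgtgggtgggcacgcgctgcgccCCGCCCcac
Neither window held the E-box, which was in 6.02% of 32851 RefSeq windows of 250 bases. Amd1 had 1 GC box match and, as the only one of the 8 members with an entry, TATA matches, against 22.8% of all windows with a TATA match and 32.7% with a GC box. Odc1 had 4 GC box matches in the 250 bases searched, not all of them within the 171 bases shown.

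Spermine synthase showed another order of libraries. Sms (chrX:157443855-157492287, minus strand) had 10.3, 5.37, 4.89 and 21.03 FPKM in LIT927 replicates 1 to 4, against 26.8, 10.5 and 4.92 FPKM in vehicle replicates 1, 3 and 4. LIT927 replicate 4 and vehicle replicate 1 were high, and the lowest libraries of both groups were almost equal. Means were 10.4 ± 7.50 FPKM with LIT927 (SD, n = 4) and 14.1 ± 11.3 FPKM with vehicle (SD, n = 3), differing by -0.33 (SE 0.63; 95% interval, -1.79 to 1.13; p = 0.657 by exact permutation). Without vehicle replicate 1 the difference was 0.25. The ratio of Sms to Srm, the synthases that act one after the other, was 0.262, 0.122, 0.0750 and 0.473 in LIT927 replicates 1 to 4 and 0.623, 0.151 and 0.142 in vehicle replicates 1, 3 and 4. It spanned 8.31-fold over the libraries, and the same libraries were high as for Sms itself.

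Among the regulators of ornithine decarboxylase, Oaz1 had the highest level of all 10 members in 7 of 7 libraries. It had 276, 212, 224 and 282 FPKM in LIT927 replicates 1 to 4, against 313, 250.4 and 139 FPKM in vehicle replicates 1, 3 and 4 (chr10:80826656-80829290, plus strand). The vehicle libraries held both extremes, and the LIT927 libraries lay between them. Means of 248 ± 35.6 FPKM with LIT927 (SD, n = 4) and 234 ± 88.1 FPKM with vehicle (SD, n = 3) differed by 0.15 (SE 0.33, 95% interval -0.62 to 0.92, exact permutation p = 0.743). Without vehicle replicate 4 the difference was -0.19.

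Oaz2 had nearly the same order of libraries at a lower level. It had 42.6, 35.4, 35.4 and 47.4 FPKM in LIT927 replicates 1 to 4, against 56.2, 42.7 and 24.3 FPKM in vehicle replicates 1, 3 and 4 (chr9:65668001-65690300, plus strand). Vehicle replicate 1 was again the highest library and vehicle replicate 4 the lowest. Mean FPKM was slightly lower with LIT927, at 40.2 ± 5.88 (SD, n = 4) against 41.1 ± 16.0 with vehicle (SD, n = 3), while the difference of mean log2(FPKM + 1) was 0.04 (SE 0.29), of the opposite sign. Its 95% interval was -0.65 to 0.72 and the exact permutation p 0.971, and its sign was negative under 3 other scalings (-0.021, -0.066 and -0.0033). Most of the spread of both antizymes followed the scale of the libraries: after median-of-ratios scaling the highest library was 1.32 times the lowest for Oaz1 and 1.25 times for Oaz2, against 2.25 and 2.31 times before. The median over the 4302 genes was 1.597 after scaling.

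The antizyme pair also kept a narrow ratio to each other. Oaz1 over Oaz2 was 6.47, 5.98, 6.32 and 5.94 in LIT927 replicates 1 to 4, against 5.57, 5.87 and 5.73 in vehicle replicates 1, 3 and 4. Every LIT927 library was above every vehicle library, by a small margin between 5.94 and 5.87. The means were 6.18 ± 0.256 with LIT927 (SD, n = 4) and 5.72 ± 0.147 with vehicle (SD, n = 3). This ratio, 1 of 5 computed, was picked out after its values were seen and has no test. Processed pseudogenes of both antizymes and of Sms are annotated (Oaz1-ps, Oaz2-ps, Sms-ps) and have no row in the files, so fragments they may share could not be followed.

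The antizyme inhibitor gene Azin1 (chr15:38487427-38519266, minus strand) had 17.2, 9.02, 10.1 and 14.1 FPKM in LIT927 replicates 1 to 4, against 17.3, 12.7 and 8.42 FPKM in vehicle replicates 1, 3 and 4. High and low libraries occurred in both groups. Means were 12.6 ± 3.78 FPKM with LIT927 (SD, n = 4) and 12.8 ± 4.44 FPKM with vehicle (SD, n = 3), and the difference was -0.01 (SE 0.31, 95% interval -0.73 to 0.71, exact permutation p = 0.971).

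Sat1, the acetyltransferase that starts polyamine breakdown, had the largest difference among the members. It had 118, 110.9, 53.5 and 103 FPKM in LIT927 replicates 1 to 4, against 100, 57.3 and 37.6 FPKM in vehicle replicates 1, 3 and 4 (chrX:155213132-155216449, minus strand). LIT927 replicates 1, 2 and 4 were above every vehicle library, while LIT927 replicate 3 fell within the vehicle range. Means were 96.5 ± 29.3 FPKM with LIT927 (SD, n = 4) and 65.0 ± 31.9 FPKM with vehicle (SD, n = 3). The difference of 0.61 (SE 0.40, 95% interval -0.32 to 1.55) corresponds to an interval from 0.80-fold to 2.93-fold, with an exact permutation p of 0.229. It did not exceed the spread between libraries.

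The Sat1 estimate kept its sign in 14 of 14 other settings, between 0.28 and 0.98. These settings reuse most or all of the same libraries, so they are not separate checks. Scaling narrowed its error: with median-of-ratios factors the difference was 0.55 (SE 0.21) with an unadjusted limma p of 0.0376, and voom on recovered fragments gave 0.58 with an unadjusted limma p of 0.0306. Upper-quartile scaling gave 0.51 with a 95% interval of -0.088 to 1.10 and an unadjusted limma p of 0.083. After adjustment over all genes these became 0.582, 0.584 and 0.669, so none of the 3 is a call. Without LIT927 replicate 3 the difference was 0.87, and without vehicle replicate 1 it was 0.98, with unadjusted limma p of 0.0448 and 0.0387. Without vehicle replicate 4 it was 0.28. Scaled values were 104, 109, 65.8 and 89.2 in LIT927 replicates 1 to 4, against 76.5, 53.1 and 56.6 in vehicle replicates 1, 3 and 4, and the groups still overlapped through LIT927 replicate 3. Most leukocyte and stromal markers were lower in mean with LIT927, but 0 passed the adjusted threshold and the sums of both lists overlapped between groups. The 10 leukocyte markers summed to 67.0 to 194 FPKM in LIT927 libraries and 188 to 562 FPKM in vehicle libraries. Their mean was lower for 9 of 10, and each was above 0 in every library. For 4 of these 10 the groups did not overlap, beside 3.2% of all genes, and for 0 of the 8 stromal and vessel markers. The defining leukocyte gene Ptprc was among the 4. It was at 0.456 to 1.11 FPKM in LIT927 libraries and 1.32 to 3.23 FPKM in vehicle libraries (exact permutation p = 0.0286, limma adjusted p = 0.998). The 8 stromal and vessel markers summed to 231 to 1757 FPKM in LIT927 libraries and 807 to 2955 FPKM in vehicle libraries, with 8 of 8 lower in mean. Prostate secretory markers were lower in mean log2(FPKM + 1) in 7 of 7, beside the 55.5% of all genes that were higher. They summed to 5977 to 166827 FPKM in LIT927 libraries and 9764 to 75982 FPKM in vehicle libraries. Mean FPKM went both ways: Sbp was higher with LIT927, at 30136 against 17903 FPKM, and Pbsn lower, at 3287 against 5230 FPKM. Of the vas deferens and epididymis markers, 0 of 4 were lower in mean. They summed to 20695, 10654, 55.5 and 7543 FPKM in LIT927 replicates 1 to 4, against 9903, 187 and 2052 FPKM in vehicle replicates 1, 3 and 4. The 4 libraries with the highest sums were also the 4 highest for Sat1, but the full order differed. Vehicle replicate 4 had the lowest Sat1, at 37.6 FPKM, with a higher sum than either replicate 3. The part of these markers in the Sat1 values was not tested.

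**Figure D2:**
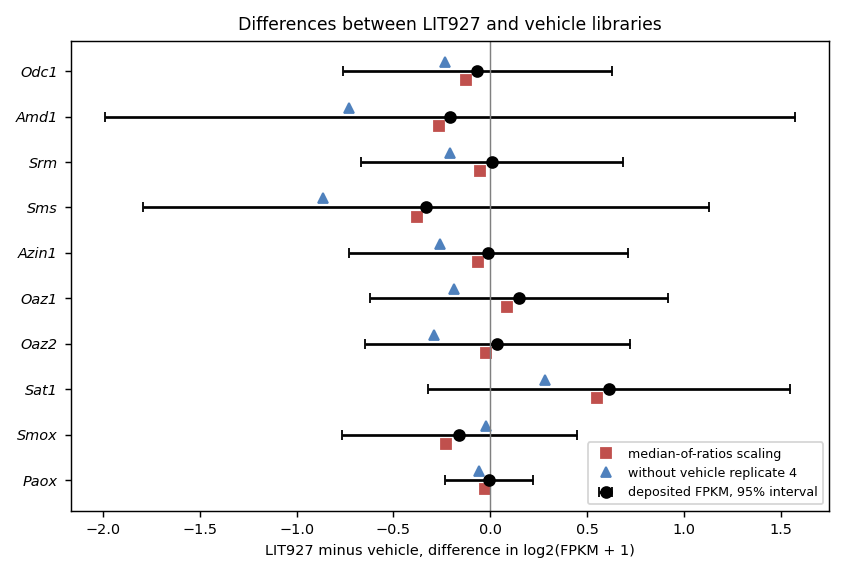
Difference between LIT927 and vehicle for each member on the log2(FPKM + 1) scale, positive where LIT927 is higher; black points are the deposited FPKM with 95% intervals, red squares the values after median-of-ratios scaling and blue triangles the values without vehicle replicate 4. All 10 intervals include 0, and Sat1 has the estimate farthest to the right in each of the 3 (0.61, 0.55 and 0.28).

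The oxidases were the least abundant members. Smox (chr2:131491496-131525922, plus strand) had 4.61, 4.90, 2.70 and 4.15 FPKM in LIT927 replicates 1 to 4, against 3.84, 4.38 and 5.74 FPKM in vehicle replicates 1, 3 and 4. LIT927 replicate 3 was the lowest library and vehicle replicate 4 the highest, and the others overlapped. The means of 4.09 ± 0.975 FPKM with LIT927 (SD, n = 4) and 4.65 ± 0.984 FPKM with vehicle (SD, n = 3) differed by -0.16 (SE 0.26, 95% interval -0.76 to 0.45, exact permutation p = 0.543). The sign was negative in 14 of 14 other settings, which reuse most or all of the same libraries.

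Paox (chr7:140115799-140137224, plus strand), which oxidises acetylated polyamines, was close to the floor of the range. It had 0.706, 0.542, 0.588 and 0.569 FPKM in LIT927 replicates 1 to 4, against 0.758, 0.577 and 0.498 FPKM in vehicle replicates 1, 3 and 4, which rest on 164 to 238 fragments. No library stood apart. Means were 0.601 ± 0.0723 FPKM with LIT927 (SD, n = 4) and 0.611 ± 0.133 FPKM with vehicle (SD, n = 3), differing by -0.01 (SE 0.10) with a 95% interval of -0.23 to 0.22 and an exact permutation p of 0.914.

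Set in order of their mean level over the 7 libraries, per length of gene, the members ran Oaz1 (242 FPKM), Sat1 (83.0), Amd1 (61.6), Srm (48.6), Oaz2 (40.6), Odc1 (27.4), Azin1 (12.7), Sms (11.97), Smox (4.33) and Paox (0.605). Oaz1 was above Sat1, Odc1 above Azin1, and Smox above Paox in 7 of 7 libraries. The middle of the order was less firm. Sat1 was above Amd1 in 5 of 7 libraries and Srm above Oaz2 in 4 of 7, and Amd1 was above Srm in 2 of 7, its mean being carried by both replicates 3. The antizyme Oaz1 exceeded its target Odc1 by 11.7, 10.8, 5.42 and 11.7 times in LIT927 replicates 1 to 4 and by 12.02, 6.91 and 6.498 times in vehicle replicates 1, 3 and 4.

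Ratios within a library do not depend on its scale. Odc1 over Sat1, the entry into synthesis set against acetylation, was 0.199, 0.176, 0.770 and 0.233 in LIT927 replicates 1 to 4, against 0.261, 0.633 and 0.569 in vehicle replicates 1, 3 and 4. LIT927 replicates 1, 2 and 4 were below every vehicle library, and LIT927 replicate 3 was above them. On a log2 scale the mean was -1.83 ± 0.98 with LIT927 (SD, n = 4) and -1.14 ± 0.70 with vehicle (SD, n = 3), a difference of -0.69 that is smaller than the SD within the LIT927 group. Amd1 over Odc1 was 1.13, 1.40, 3.401 and 1.39 in LIT927 replicates 1 to 4, against 1.38, 3.98 and 1.10 in vehicle replicates 1, 3 and 4. The excess of Amd1 in both replicates 3 was therefore larger than that of Odc1.

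**Figure D3:**
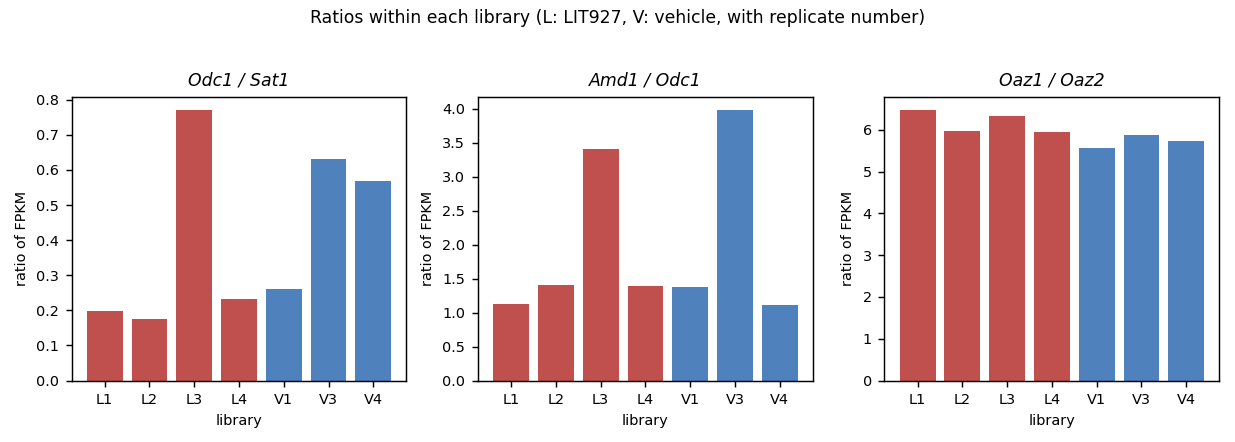
Ratios of FPKM within each library, LIT927 replicates in red on the left and vehicle replicates in blue on the right, with bars from 0. Odc1/Sat1 and Amd1/Odc1 are high in LIT927 replicate 3 (0.770 and 3.401) and vehicle replicate 3 (0.633 and 3.98), while Oaz1/Oaz2 stays between 5.57 and 6.47.

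Genes around the pathway also gave no call between LIT927 and vehicle. Of 37 further genes listed for supply, transport, related enzymes and use of polyamines, 34 were measured; Agmat, Satl1 and Slc22a2 had no row. A higher mean with LIT927 was found for 22 of the 34, beside 55.5% of all genes, and a lower one for 12. The median difference was 0.14, against 0.02 over all genes. By limma with Benjamini-Hochberg adjustment 0 of 34 passed, and 1 of 34 had an unadjusted p under 0.05, beside the 3.68% of all genes. Atp13a4, a P-type ATPase of the family that moves polyamines across membranes, was that gene. It had 0.166, 0.339, 0.266 and 0.262 FPKM in LIT927 replicates 1 to 4, against 0.0980, 0.166 and 0.0660 FPKM in vehicle replicates 1, 3 and 4. The lowest LIT927 and the highest vehicle library were level to 3 digits, and the groups overlapped after scaling. Its difference was 0.18 (SE 0.06, exact permutation p = 0.0571), on as few as 12 fragments in a library, with a limma adjusted p of 0.998.

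The supply of precursors held the most variable genes. Ornithine comes from arginase and can leave through ornithine aminotransferase: 3 of 4 genes of this group were higher in mean with LIT927. Arg2, the mitochondrial arginase, had 38.0, 22.2, 59.2 and 29.8 FPKM in LIT927 replicates 1 to 4, against 30.9, 36.3 and 7.18 FPKM in vehicle replicates 1, 3 and 4, a difference of 0.75 (SE 0.57). Oat, the aminotransferase, had 106, 112, 46.0 and 111 FPKM in LIT927 replicates 1 to 4, against 113, 76.4 and 53.6 FPKM in vehicle replicates 1, 3 and 4. Both groups of each gene overlapped. Arg1, the cytosolic arginase, was chosen after its values were seen: it was at 132 FPKM in LIT927 replicate 3 and 36.3 FPKM in vehicle replicate 3, and between 0.0829 and 3.67 FPKM in the other 5 libraries.

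Genes of methionine and methylthioadenosine use were higher in mean with LIT927 in 8 of 8, beside the 55.5% of all genes, with differences of 0.002 to 0.49, and 0 of 8 passed the test. Mat2a, which makes the S-adenosylmethionine that Amd1 decarboxylates, had 54.9, 62.7, 409 and 58.0 FPKM in LIT927 replicates 1 to 4, against 63.3, 198 and 24.4 FPKM in vehicle replicates 1, 3 and 4. Like Amd1, it was highest in both replicates 3. Its difference was 0.49 with an SE of 0.90. Mat2b, the regulatory subunit, was between 32.1 and 36.9 FPKM in LIT927 libraries and between 21.3 and 36.7 FPKM in vehicle libraries.

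Related enzymes were low. Of 5 such genes, 3 were higher in mean with LIT927 and 2 lower. Sat2, a relative of Sat1, was at 2.02 to 3.90 FPKM in LIT927 libraries and 1.54 to 2.91 FPKM in vehicle libraries. Aoc1, the diamine oxidase that degrades putrescine, had 2.87, 2.04, 0.0437 and 1.29 FPKM in LIT927 replicates 1 to 4, against 1.08, 0.0207 and 0.407 FPKM in vehicle replicates 1, 3 and 4. It was lowest in both replicates 3, opposite to Amd1. Of 9 transport genes 3 were higher and 6 lower. Atp13a3, a polyamine transporter related to Atp13a4, was at 9.92 to 23.4 FPKM in LIT927 libraries and 15.1 to 22.9 FPKM in vehicle libraries.

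Spermidine is also used to make hypusine, a modified lysine of the translation factor eIF5A. Of the 4 genes of this group 2 were higher and 2 lower in mean with LIT927. Eif5a, the substrate, was close to Oaz1 in level, at 211 to 271 FPKM in LIT927 libraries and 169 to 272 FPKM in vehicle libraries. Dohh, the hydroxylase of the final step, was at 26.7 to 47.5 FPKM in LIT927 libraries and 23.2 to 49.6 FPKM in vehicle libraries. Tgm4, the prostate transglutaminase that couples polyamines to seminal proteins, had 1953, 61.0, 26.0 and 6706 FPKM in LIT927 replicates 1 to 4, against 8361, 2073 and 1127 FPKM in vehicle replicates 1, 3 and 4. Its difference was -2.81 with an SE of 1.96. Max, the partner of Myc, was at 21.8 to 27.4 FPKM in LIT927 libraries and 17.5 to 29.3 FPKM in vehicle libraries.

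**Figure D4:**
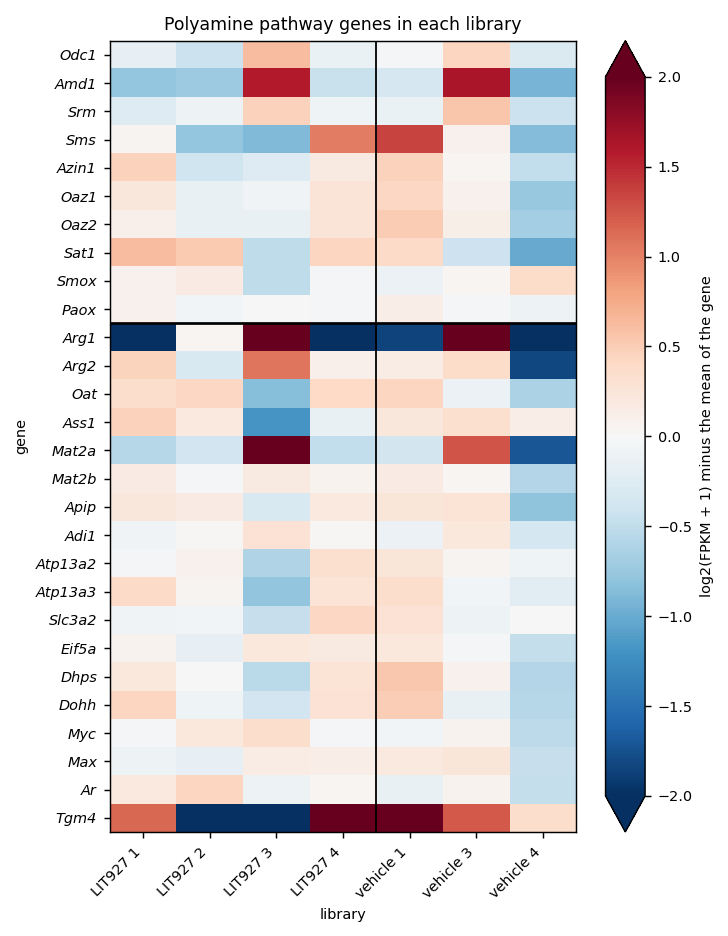
Level of each gene in each library as log2(FPKM + 1) minus the mean of that gene over the 7 libraries, red above and blue below, with colours ending at -2 and 2. The 10 members are above the line and the pathway genes with a mean of at least 10 FPKM below it, 1 left out; Amd1, Arg1 and Mat2a are red in LIT927 replicate 3 and vehicle replicate 3, while Sms and Tgm4 are red in LIT927 replicate 4 and vehicle replicate 1.

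Profiles over the 7 libraries were compared with those of 4315 genes with a mean of at least 10 FPKM, by the root mean square distance of centred log2(FPKM + 1). Nearest to Odc1 were Cdv3 (0.0609), Agpat3 (0.0930) and Esrp1 (0.09998), against a median distance of 0.495. Each was highest in both replicates 3, with Cdv3 at 33.7 FPKM in LIT927 replicate 3 and 30.2 FPKM in vehicle replicate 3. Nearest to Sat1 were Fmc1 (0.0956), St3gal3 (0.115) and Dctn6 (0.128), against a median distance of 0.444. Fmc1 had 59.3, 60.5, 27.1 and 57.7 FPKM in LIT927 replicates 1 to 4, against 55.7, 32.9 and 23.1 FPKM in vehicle replicates 1, 3 and 4, with LIT927 replicate 3, vehicle replicate 3 and vehicle replicate 4 low as for Sat1.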

How the data were processed

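Per the labels' protocols, prostate total RNA was prepared for sequencing with a VAHTS Universal kit. The tools named, per the submitters' processing notes, are fastp, HISAT2 and HTSeq, with build mm10. Tool versions, gene annotation and strandedness: not given in the sources used here, so antisense fragments cannot be told apart. The deposited values are FPKM made by the authors, a unit worked out from the values because the file headers say only expression. Whole fragments were recovered for 100% of genes within 0.01 and gave the depths.

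Differences are LIT927 minus vehicle on log2 of the deposited FPKM plus 1, which understates the change of low genes, tested with limma 3.58.1 in R 4.3.3 (mean-variance trend, 7 libraries, no covariate). FPKM move with the most abundant genes, so other scalings, pseudocounts, filters and left-out libraries were tried. Coordinates are from GENCODE M21, and promoters from RefSeq GRCm38.p6, which had 8 of 10 members. Tables and figures used Python 3.11.15, NumPy 2.4.6, pandas 2.3.3 and matplotlib 3.10.9. The code was tested on simulated data.

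The members, lists and tests were chosen with earlier results of these data known. Named were the members, other pathway genes past the threshold or with groups that do not overlap, otherwise the 2 most abundant of each sublist, the 3 nearest profiles to Odc1 and Sat1, and defining tissue markers; 1 pathway gene that this rule names is not reported here, and other genes are named as chosen after their values were seen.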

Additional observations from a re-analysis of the deposited data

Results flagged for a closer look

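In 24 sets of values, those of the 10 members, the named pathway genes and the Odc1 over Sat1 ratio in the 4 LIT927 libraries, the gap of the most extreme library to its nearest neighbour was divided by the whole range of the group and set against Dixon's 95% limit for 4 values. Chance passes that limit in about 1 group in 20, and 3 of the 24 passed it, each through LIT927 replicate 3. Amd1 passed with a share of 0.938, at 140.3 FPKM in LIT927 replicate 3 against 26.5 to 33.5 FPKM in the other LIT927 libraries. Mat2a passed with 0.978, at 409 FPKM in LIT927 replicate 3 against 54.9 to 62.7 FPKM in the other LIT927 libraries. Oat passed with 0.917 in the opposite direction, at 46.0 FPKM in LIT927 replicate 3 against 106 to 112 FPKM in the others. With 3 libraries the vehicle group was too small for this measure; its replicate 3 had 144 FPKM of Amd1, 198 FPKM of Mat2a and 76.4 FPKM of Oat.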

How the results depend on the processing

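The count of genes past the adjusted threshold was 0 of those tested in every setting tried, by limma and by voom, with 259 to 1361 genes at an unadjusted p under 0.05. Genes with groups that do not overlap, 513 of 16019 at first, numbered 206 of 11151 with a minimum of 1 FPKM in 3 libraries. They numbered 1447 with median-of-ratios scaling, 1302 with upper-quartile scaling and 1537 with voom. Without both libraries high in uroplakin transcripts they numbered 2848, and leaving out single libraries gave 610 to 2899. Smaller groups separate more easily by chance, so the counts with fewer libraries cannot be set against 513. Sat1 stayed higher (0.28 to 0.98) and Smox lower (-0.26 to -0.01) in all 14 settings tried, which share libraries and are not separate checks. Leaving out single libraries gave, with signs of both kinds, -0.28 to 0.13 for Odc1, -0.77 to 0.55 for Amd1, -0.21 to 0.29 for Srm, -0.86 to 0.25 for Sms, -0.057 to 0.058 for Paox, -0.26 to 0.22 for Azin1, -0.19 to 0.40 for Oaz1 and -0.29 to 0.30 for Oaz2. The sign turned without LIT927 replicate 2 or vehicle replicate 3 for Odc1, also without LIT927 replicate 1 for Amd1, without LIT927 replicate 3, vehicle replicate 1 or 4 for Srm, without LIT927 replicate 2, 4 or vehicle replicate 1 for Paox, without LIT927 replicate 2, 3 or vehicle replicate 1, 3 for Azin1, without LIT927 replicate 4 or vehicle replicate 4 for Oaz2, without vehicle replicate 1 for Sms and without vehicle replicate 4 for Oaz1. Srm was also -0.051, -0.096 and -0.036, and Oaz2 -0.021, -0.066 and -0.0033, with median-of-ratios, upper-quartile and voom scaling; Azin1 was 0.095 without both uroplakin-high libraries. The cause was not tested. Paox did not reach the 1 FPKM minimum. The Odc1 over Sat1 difference ran from -1.18 to -0.45 without single libraries.

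Libraries of the 2 groups share replicate numbers. Their deviations from the group mean correlated at 0.565 for number 1, 0.70 for number 3 and -0.24 for number 4. Libraries of different number correlated at -0.647 to 0.642, a range that takes in 0.565, so these values cannot decide whether the numbers pair the libraries. With the replicate block, Odc1 was 0.067, Amd1 0.0053, Paox 0.011 and Azin1 0.12, against negative values without it, and 0 genes passed. LIT927 replicate 2 has no vehicle library of its number, so the block takes it out of the difference. These 4 values are therefore the same as those without LIT927 replicate 2 and are not a separate result. On the deposited scale the 95% intervals of all 10 members include 0. With 4 against 3 libraries none of their differences could be told from 0, and changes as large as the interval ends are not excluded.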

Other observations

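Sms, the spermine synthase gene, varied over the libraries in an order shared at its upper end by Tgm4 and Pbsn, a likeness picked out after the values were seen. The 4 libraries highest for Sms were, in falling order, vehicle replicate 1, LIT927 replicate 4, vehicle replicate 3 and LIT927 replicate 1. For Tgm4, the prostate transglutaminase, they were the same in the same order, at 6706 FPKM in LIT927 replicate 4 and 1953 FPKM in LIT927 replicate 1, with 8361 FPKM in vehicle replicate 1 and 2073 FPKM in vehicle replicate 3. Pbsn, which encodes the secreted protein probasin, had the same 4 libraries at the top, at 8963 FPKM in LIT927 replicate 4 and 3823 FPKM in LIT927 replicate 1, with 11311 FPKM in vehicle replicate 1 and 3096 FPKM in vehicle replicate 3. Not every gene of prostate secretion had this order: Sbp was highest in both replicates 3, at 114916 FPKM in LIT927 replicate 3 and 53139 FPKM in vehicle replicate 3, and was at 303 FPKM in LIT927 replicate 4 and 339 FPKM in vehicle replicate 1. The relation was not tested.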
